A study of Mus musculus with 8 samples.

Results

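Hsd3b7, Abcc2 and Slc10a1 encode a bile acid synthesis enzyme and a pair of hepatocyte transporters. Their RNA was read in mouse liver from 1 array probe each, the only one that could be named. The probes were those of the deposited expression table whose identifier carries the NCBI Gene ID of 1 of the 3 genes (101502 for Hsd3b7, 12780 for Abcc2 and 20493 for Slc10a1). They are 3 of 24048 probes on the array, and the 3 genes are among 7409 that could be named in this way. Only 9523 probes carry a gene number, so further probes of these genes may be among the unnamed ones. All 3 probes read above the floor of 16 intensity units on every array and were among the 14759 probes tested.

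The livers came from 8 male mice aged 23 weeks, 4 labelled Gpx3 transgenic and 4 labelled B6/DBA wildtype, with 1 array per animal. All of them ate chow with 4% fat until the age of 11 weeks and chow with 6% fat from then until they were killed. The Gpx3 product is a glutathione peroxidase, a selenoprotein of plasma that reduces peroxides. The promoter that drives the transgene, the number of founder lines and the strain background of the transgenic animals are not given in the sources used here. No probe number matched Gpx3, so its level was not analysed here and does not check the labels. Transgenic animal 2 stood apart from the other animals at the probe of Serpina1e, an α1-antitrypsin gene with near-identical copies. This probe read 408.8 units in it and 20413.7 to 33464.2 units in the other 7 animals.

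Hepatocytes make bile acids from cholesterol, conjugate them to amino acids and pump them across the canalicular membrane into bile. Most bile acids return from the gut in portal blood and are taken up again across the sinusoidal membrane, which faces the blood. Nuclear receptors that sense bile acids and oxysterols adjust both synthesis and transport. HSD3B7 oxidises the sterol ring after it has been hydroxylated, a step shared by the classic and the alternative route of synthesis. ABCC2, also called MRP2, is an ATP-driven canalicular pump for conjugated organic anions such as bilirubin glucuronides and glutathione conjugates. SLC10A1, also called NTCP, is the sodium-coupled carrier that takes conjugated bile acids up from blood, so it is a sinusoidal and not a canalicular transporter.

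The start regions of the 3 genes are shown because nuclear receptors act on genes of this pathway, and so that the letters around each start can be read beside the RNA values. Each window runs from 250 bases before to 50 bases after an annotated start, 5′ to 3′ along the gene, from RefSeq on GRCm38.p6. Slc10a1 has 2 annotated starts. Capitals mark the hexamer AGGTCA, to which many nuclear receptors bind in pairs, on either strand.
Hsd3b7, chr7:127800359-127800658, plus strand: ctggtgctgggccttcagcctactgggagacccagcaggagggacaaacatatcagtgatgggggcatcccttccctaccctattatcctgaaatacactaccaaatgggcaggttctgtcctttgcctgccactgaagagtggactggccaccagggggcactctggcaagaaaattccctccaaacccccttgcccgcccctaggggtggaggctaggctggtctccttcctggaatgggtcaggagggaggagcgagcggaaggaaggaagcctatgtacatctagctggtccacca
Abcc2, chr19:43782058-43782357, plus strand: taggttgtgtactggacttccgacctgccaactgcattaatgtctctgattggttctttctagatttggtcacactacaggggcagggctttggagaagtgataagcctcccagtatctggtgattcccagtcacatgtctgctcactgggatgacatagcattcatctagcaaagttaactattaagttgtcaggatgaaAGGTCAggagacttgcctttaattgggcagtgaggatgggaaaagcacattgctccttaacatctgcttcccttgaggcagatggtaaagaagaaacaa
Slc10a1, upstream start, chr12:80968656-80968955, minus strand: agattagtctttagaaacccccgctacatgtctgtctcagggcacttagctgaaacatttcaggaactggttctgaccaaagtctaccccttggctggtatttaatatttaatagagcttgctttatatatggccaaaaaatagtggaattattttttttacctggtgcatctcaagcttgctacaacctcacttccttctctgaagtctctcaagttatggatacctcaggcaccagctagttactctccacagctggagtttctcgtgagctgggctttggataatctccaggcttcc
Slc10a1, downstream start, chr12:80968030-80968329, minus strand: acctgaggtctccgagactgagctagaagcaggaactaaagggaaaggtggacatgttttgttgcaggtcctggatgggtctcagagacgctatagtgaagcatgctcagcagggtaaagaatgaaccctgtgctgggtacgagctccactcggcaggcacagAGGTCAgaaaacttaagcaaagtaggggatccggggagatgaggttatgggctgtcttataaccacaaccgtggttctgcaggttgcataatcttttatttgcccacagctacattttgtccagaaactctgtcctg
AGGTCA occurred 1 time in the Abcc2 window, beginning 49 bases before the start, and 1 time in the downstream Slc10a1 window, beginning 87 bases before the start. It occurred in 16.3% of all 32851 windows of 300 bases. GTTAAT, a hexamer of the hepatocyte factor HNF1 searched on both strands, was in none of the 4 windows and in 7.1% of all windows. Only exact letter matches were searched, so sequences that differ from a hexamer by a base were not counted. The arrays measured RNA and no factor binding.

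The mean signals of all 3 genes were lower in transgenic than in wildtype livers, and none of the 3 differences passed the test. The values are intensities on a linear scale, background-subtracted before deposition. Groups were compared in limma on log2 values (values under 16 set to 16), and p-values were adjusted over all 14759 tested probes by the Benjamini-Hochberg method. A fold change is transgenic over wildtype. Over the whole table limma called 0 probes at an adjusted p under 0.05 (0%), and 1006 probes (6.82%) had an unadjusted p under 0.05. None of the 3 genes was in either count. Negative log2 fold changes, which all 3 genes had, were found at 53.3% of the tested probes. In whole liver, fewer cells of a type and less RNA per cell cannot be told apart.

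**Figure D1:**
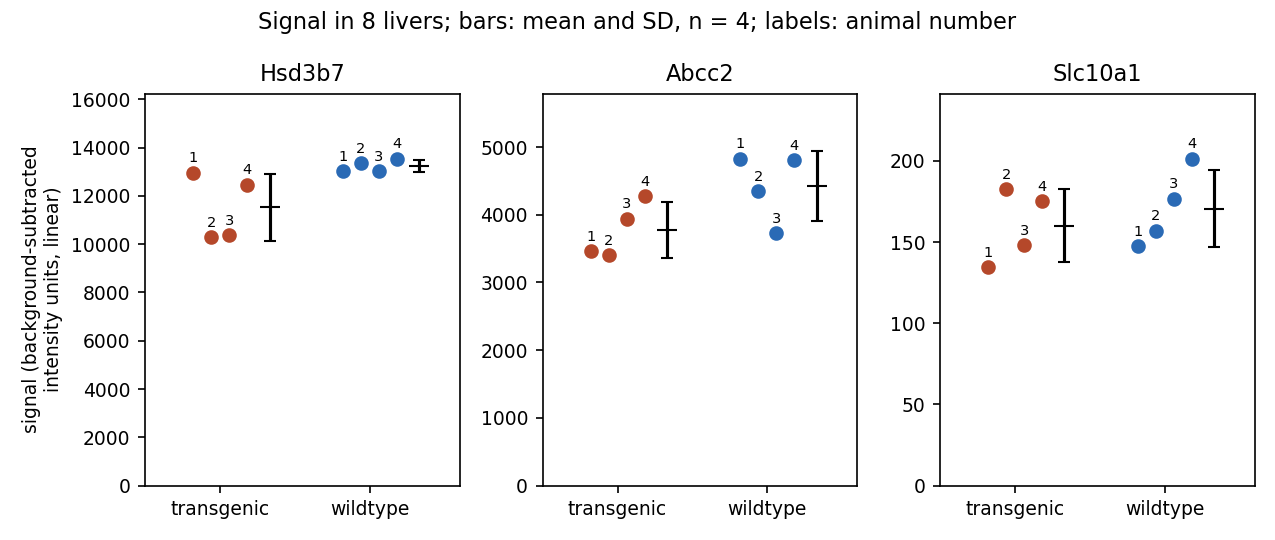
Signal of the Hsd3b7, Abcc2 and Slc10a1 probes (linear, background-subtracted intensity units) in each of 4 transgenic and 4 wildtype livers. Points are animals with their number, and bars are the mean and SD; the Hsd3b7 groups lie apart by 57.1 units, and the Abcc2 and Slc10a1 groups overlap.

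Hsd3b7 read 12966.5, 10286.9, 10363.4 and 12459.8 units in transgenic livers 1 to 4, against 13023.6, 13351.7, 13024.7 and 13532.4 units in wildtype livers 1 to 4. Transgenic animals 2 and 3 were low and transgenic animals 1 and 4 lay close to the wildtype values. The groups did not overlap, with 57.1 units between the highest transgenic and the lowest wildtype liver, and the wildtype animals were close together. Transgenic livers had a mean of 11519.2 ± 1394.5 units, against 13233.1 ± 252.3 units in wildtype livers (SD, n = 4 each). The fold change was 0.866 with a 95% interval of 0.743 to 1.01. On the log2 scale it was -0.21 ± 0.10 (SE), and limma gave an unadjusted p of 0.0622, which was 0.754 when adjusted.

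Non-overlapping groups with the transgenic animals lower were found at 1.83% of the tested probes, and non-overlapping groups in either direction at 3.56%. The exact two-sided permutation test of the Hsd3b7 log2 values gave p = 0.0286, the lowest p possible with 4 animals in each group. This p follows from the lack of overlap and is no further support. It also takes no account of the choice of the gene with earlier results of these data known. The separation depended on the scaling of the arrays. After quantile normalization transgenic animals 1 and 4 read 12823.8 and 12595.5 units, against a lowest wildtype value of 12346.1, and the exact permutation p was 0.171. With array medians aligned the groups overlapped as well, with an exact permutation p of 0.143. Normexp with an offset of 50 corrects background within each array and does not scale arrays to each other. With it the Hsd3b7 groups stayed apart by 0.006 log2 units, as in the reported values. On the log2 scale the SD was 0.175 in transgenic and 0.027 in wildtype livers, a difference in spread that was not tested.

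Abcc2 read 3463.3, 3402.4, 3939.8 and 4274.7 units in transgenic livers 1 to 4, against 4825.5, 4346.9, 3728.3 and 4803.6 units in wildtype livers 1 to 4. The groups overlapped, since wildtype animal 3 lay below transgenic animals 3 and 4. In 14 of the 16 possible pairs of a transgenic and a wildtype animal the transgenic animal was the lower one. Transgenic livers had a mean of 3770.1 ± 413.4 units, against 4426.1 ± 514.9 units in wildtype livers (SD, n = 4 each). The fold change was 0.853 with a 95% interval of 0.706 to 1.03. On the log2 scale it was -0.23 ± 0.12 (SE), and limma gave an unadjusted p of 0.0863, which was 0.776 when adjusted. The exact two-sided permutation p was 0.114. Without wildtype animal 3 the log2 fold change was -0.31, with an adjusted p of 0.523 in limma.

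Slc10a1 read 134.6, 182.4, 148.0 and 175.3 units in transgenic livers 1 to 4, against 147.3, 156.9, 176.6 and 201.2 units in wildtype livers 1 to 4. How well this probe responds to Slc10a1 RNA was not tested, so its values describe the probe and may miss a difference in the gene. The groups were interleaved, with the lowest value in a transgenic and the highest in a wildtype animal. Transgenic livers had a mean of 160.1 ± 22.5 units, against 170.5 ± 23.8 units in wildtype livers (SD, n = 4 each). The transgenic mean was thus lower by less than the SD of either group. The fold change was 0.938 with a 95% interval of 0.752 to 1.17, which leaves room for a difference in either direction. On the log2 scale it was -0.09 ± 0.14 (SE), for which limma gave an adjusted p of 0.850 and the exact two-sided permutation test p = 0.571. The Slc10a1 value turned on single animals: its log2 fold change was -0.16 without transgenic animal 2 or without wildtype animal 1, -0.01 without transgenic animal 1 and -0.01 without wildtype animal 4.

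The 3 genes did not single out the same animals. Transgenic animal 2 was the lowest of the 8 for Hsd3b7, at 77.7% of the wildtype mean, and for Abcc2, at 76.9%, and read 107% of it for Slc10a1. Transgenic animal 1 was at 98% of the wildtype mean for Hsd3b7, 78.2% for Abcc2 and 78.9% for Slc10a1. Transgenic animal 3 was below the wildtype mean for all 3 genes, at 78.3%, 89% and 86.8% in the order Hsd3b7, Abcc2 and Slc10a1. Transgenic animal 4 was the closest of the transgenic animals to it for Abcc2 and Slc10a1, at 94.2%, 96.6% and 103% in the same order. Wildtype animal 4 was the highest of the 8 for Hsd3b7 and Slc10a1.

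**Figure D2:**
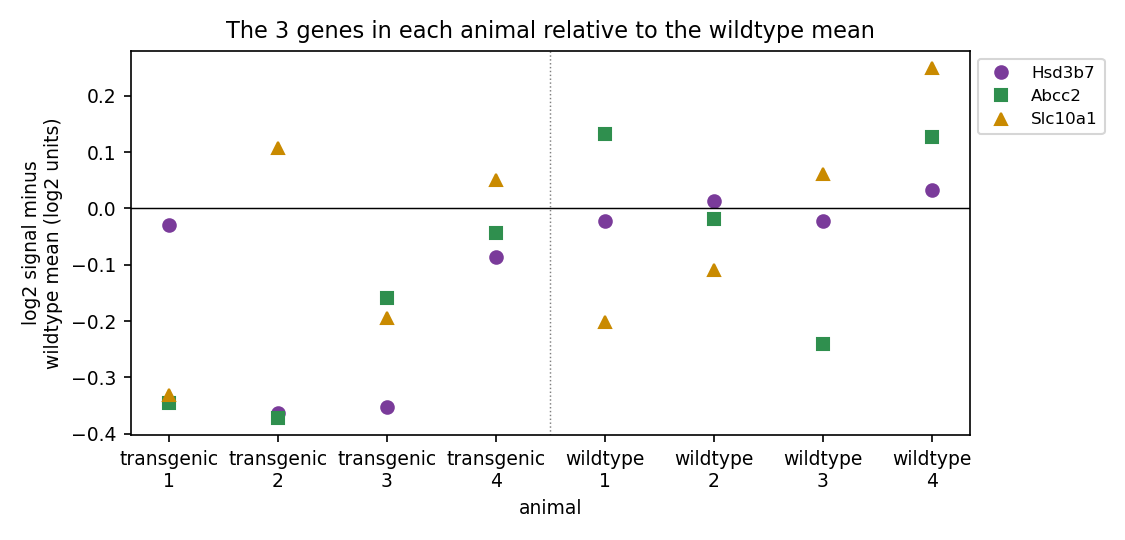
Log2 signal of the 3 genes in each animal minus the mean log2 signal of the 4 wildtype livers, with transgenic animals on the left. Hsd3b7 is lowest in transgenic animals 2 and 3 (-0.363 and -0.352), Abcc2 in transgenic animals 1 and 2 (-0.346 and -0.372), and Slc10a1 in transgenic animal 1 (-0.331).

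Without transgenic animal 2 the log2 fold change was -0.16 for Hsd3b7 (adjusted p = 0.834 in limma) and -0.18 for Abcc2, also with an adjusted p of 0.834. The titles of the wildtype samples begin alike, those of transgenic animals 1 to 3 begin in a different way, and that of transgenic animal 4 in a way of its own, so whatever these title stems stand for cannot be told apart from the groups. Without transgenic animal 4 the log2 fold change was -0.25 for Hsd3b7, and limma gave an unadjusted p of 0.0373 and, adjusted, 0.522. For Abcc2 it was then -0.29, with an unadjusted p of 0.0411 and an adjusted p of 0.524.

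**Figure D3:**
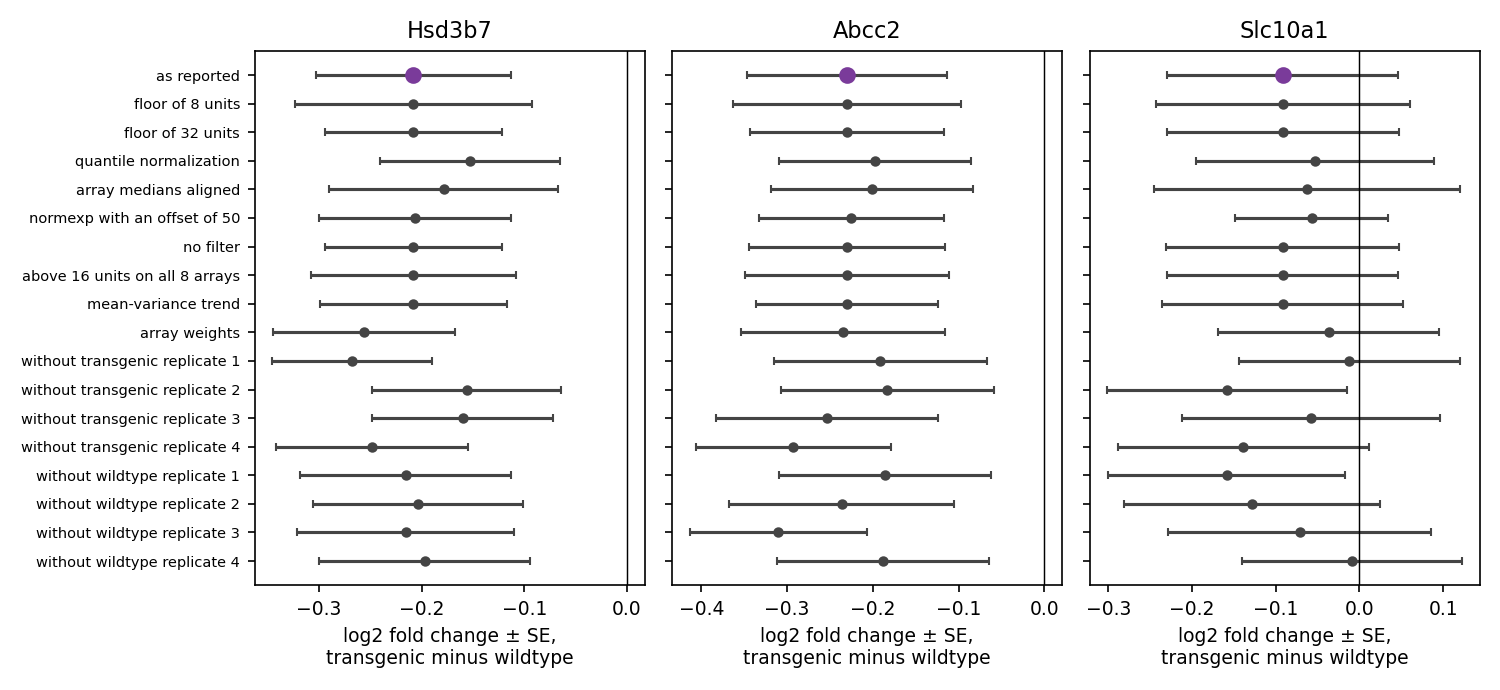
Log2 fold change (transgenic minus wildtype, with SE) of the 3 genes as reported, under 9 other processing settings and without each of the 8 animals. All values lie below 0, from -0.27 to -0.15 for Hsd3b7, from -0.31 to -0.18 for Abcc2 and from -0.16 to -0.01 for Slc10a1. The floor, filter and variance trend settings could not change the fold changes of these probes.

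A list of 44 genes of bile acid synthesis, transport and regulation placed the 3 genes in their pathway. Of these, 8 had a named probe and 7 were tested, Hsd3b7, Abcc2 and Slc10a1 included. By the brightest probe of each gene 2 were higher and 5 lower in transgenic livers, with a median log2 fold change of -0.14, beside a median of -0.02 over all tested probes. Without Hsd3b7, Abcc2 and Slc10a1 the other 4 pathway genes were split into 2 higher and 2 lower, with a median of -0.06. None of the 7 was called, and none had an unadjusted p under 0.05. No probe could be tied by number to Cyp7a1, which starts the classic route, to the conjugating enzymes Slc27a5 and Baat, to Abcb11, the canalicular bile salt pump, or to Nr1h4, the bile acid receptor FXR, and these genes were not analysed here.

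Of the side chain enzymes, Slc27a2, which activates long fatty acids and bile acid intermediates with coenzyme A, had a mean of 12333.1 ± 1388.7 units in transgenic livers, against 12254.4 ± 1660 units in wildtype livers (SD, n = 4 each). Its log2 fold change was 0.01, with a 95% interval of -0.28 to 0.31. Scp2, the peroxisomal thiolase that shortens the side chain, had 3 probes that did not point one way. The brightest had a mean of 226.9 ± 39.6 units in transgenic livers, against 286.9 ± 82.9 units in wildtype livers (SD, n = 4 each). Its log2 fold change was -0.31, and the adjusted p in limma 0.809. The other two had log2 fold changes of -0.45 and 0.29, with 95% intervals of -1.38 to 0.47 and -0.58 to 1.15. At the Scp2 probe with -0.45, wildtype animal 2 read 405.4 units and the other wildtype animals 111.3 to 167.7 units.

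Of the regulators, Rxra, the shared partner of FXR and the liver X receptors, read 376.8, 283.4, 282.6 and 311.3 units in transgenic livers 1 to 4, against 250.2, 266.7, 261.4 and 300.9 units in wildtype livers 1 to 4. Wildtype animal 4 lay above transgenic animals 2 and 3, and the log2 fold change was 0.21 ± 0.11 (SE), for which limma gave an adjusted p of 0.781. Nr1h3, the oxysterol receptor LXRα, had a mean of 2125.2 ± 197.7 units in transgenic livers, against 2344.5 ± 221.8 units in wildtype livers (SD, n = 4 each). Its log2 fold change was -0.14, and the adjusted p in limma 0.809. Slco1a1, a sinusoidal carrier of organic anions, read 3.3 to 10.5 units in transgenic livers and -0.1 to 14.7 units in wildtype livers. All 8 of its values lay below the floor of 16 units, so it was not tested and has no fold change. Probe sequences were not available, so a gene with little RNA and a probe that responds poorly cannot be told apart here.

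**Figure D4:**
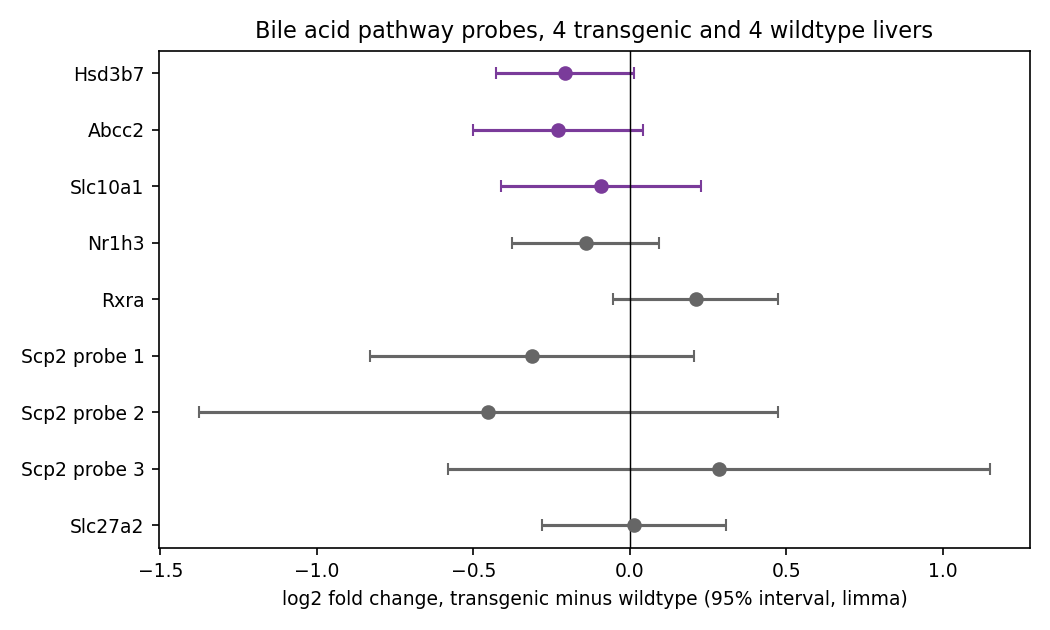
Log2 fold change, transgenic minus wildtype, with 95% intervals from limma, for the 9 tested probes of bile acid pathway genes, with Hsd3b7, Abcc2 and Slc10a1 in purple. Every interval includes 0.

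The genes whose profile over the 8 animals was closest to each of the 3 were found among 2433 named probes with a mean of at least 100 units. The measure was the root mean square difference of standardised log2 values, which is 0 for identical profiles. For Hsd3b7 these were the histone gene H2bc12 (0.235), Tmem214 (0.259) and Lrpap1 (0.261), beside a median of 1.24 over all 2433 probes. H2bc12 belongs to a family of near-identical genes, so its probe may not measure it alone. For Abcc2 they were Syngr2 (0.225), Dad1 (0.256) and the ribosomal protein gene Rps27a (0.282), beside a median of 1.26. The other Syngr2 probe had a log2 fold change of -0.14, against -0.21 at the probe named. For Slc10a1 they were Mterf1b (0.426), Hnrnpm (0.441) and Mtif3 (0.479), beside a median of 1.37. Each was chosen as the closest of many, so the small differences follow from the choice.

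Cell type markers were read beside these values. The hepatocyte marker Apoa1, the 1 of 8 listed with a named probe, had a mean of 35863.8 ± 1488.9 units in transgenic livers, against 35429 ± 1133.6 units in wildtype livers (SD, n = 4 each). For cholangiocytes, the cells that line bile ducts, 2 of 8 markers had a probe. Krt19 was below the floor in all 8 livers, and the summed signal, in effect Spp1, was 167.8 to 254.6 units in transgenic livers and 178.8 to 246.9 units in wildtype livers. The summed erythroid signal of Hba-a1 and Hbb-b1 (2 of 4 markers) was 9104.6 to 10338.9 units in transgenic livers and 10864.1 to 23810.8 units in wildtype livers. The summed stellate cell signal (4 of 6 markers, Col1a1 below the floor in all 8) was 533.8 to 627.5 units in transgenic livers and 683.4 to 915.5 units in wildtype livers. Neither of these last sums overlapped between the groups. Among single tested probes, 1.83% had groups that did not overlap with the transgenic animals lower. The erythroid sum was in effect Hba-a1, and Hbb-b1 by itself overlapped, at 77.5 to 85.3 units in transgenic livers and 83.6 to 180.2 units in wildtype livers. Of the stellate markers Lrat did not overlap and Timp2 did. Col1a2 rose above the floor in transgenic animal 1 only, at 19.5 units, so the stellate sum was in effect Lrat and Timp2. The part of these markers in the Hsd3b7 and Abcc2 differences was not tested. Summed endothelial signal (3 of 6 markers) overlapped, at 215.9 to 369.9 units in transgenic livers and 335.6 to 477.4 units in wildtype livers. All 3 markers had negative log2 fold changes, as did 53.3% of tested probes: -1.04 for Pecam1, -0.48 for Emcn and -0.31 for Egfl7. For Emcn limma gave an unadjusted p of 0.0314 and an adjusted p of 0.697, and none of the 3 was called. Macrophage (2 of 6) and lymphocyte (2 of 5) sums overlapped too, and S100a9, the 1 neutrophil marker of 4, read at most 36.2 units in transgenic livers and 37 units in wildtype livers. The macrophage sum was in effect C1qa, with Cd68 at most 26.9 units in any liver. The lymphocyte sum was in effect Cd74, with Cd3e at most 26.4 units.

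Median signal per array was 11 to 14.15 units, the brightest probe reached 47379.3 to 59796.1 units, and 33.1% to 35.28% of values per array lay below 0. Array medians aligned or quantile normalization moved the median log2 fold change of all tested probes from -0.02 to 0.01.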

How the data were processed

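Liver RNA of 8 mice was measured on a 1-colour Illumina bead array, 1 per animal. The authors deposited a linear, background-subtracted intensity for each probe, as the values below 0 show, made with BeadStudio 1.5.1.3 according to the submitters' processing notes. The method of subtraction and any scaling between arrays are not stated in these sources. A further deposited table has 64 value columns whose names no label gives, and they were not used. The strain given in the labels set the groups, and animal numbers follow accession order and pair no animals. The p-values rest on the spread between arrays, in which animals and array handling cannot be told apart with 1 array per animal. In limma the spread of each probe is also adjusted towards that of all tested probes. The 4 arrays per group limit the precision.

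Probe numbers were read as NCBI Gene IDs and matched to a RefSeq table of GRCm38.p6: 8884 of 9523 (93.3%) matched, against 45.6% to 48.6% with the number shifted by 1 to 3. Signals were raised to at least 16 units and log2-transformed, and the 14759 probes above 16 units on at least 1 array were fitted with limma 3.58.1 in R 4.3.3 (two-sided, lmFit then eBayes), adjusted by the Benjamini-Hochberg method at a threshold of 0.05. Of these probes 8890 were above 16 units on all 8 arrays, so shares over all tested probes include many that lie at the floor on some arrays. The fit was tested on simulated data. Exact permutation tests over the 70 splits of 8 animals were run in Python 3.11.15. Marker sums count negative values as 0. Alternatives were floors of 8 and 32, quantile normalization, aligned array medians, normexp with an offset of 50, 2 filters, a variance trend, array weights and leaving out each array.

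Values are given for the 3 genes, every pathway gene with a named probe, the 3 genes of closest profile to each and markers of the cell type lists. Some pathway genes without a named probe, and single markers, are named as examples chosen afterwards. A gene with several probes entered counts by its brightest. The members and lists were chosen with earlier results of these data known. Serpina1e was named after its values were seen.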

Additional observations from a re-analysis of the deposited data

How the results depend on the processing

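Under 9 other settings and without each of 8 animals, the log2 fold changes of Hsd3b7, Abcc2 and Slc10a1 stayed negative and none passed the adjusted threshold in limma. The floors of 8 and 32 could not change the fold changes, because all 3 probes read above 32 units. The 2 filters and the variance trend could change only the p-values. Leaving out 1 animal could not reverse Hsd3b7, whose groups did not overlap. Leaving out 1 animal gave -0.27 to -0.16 for Hsd3b7 (adjusted p 0.522 to 0.853), -0.31 to -0.18 for Abcc2 (0.523 to 0.853) and -0.16 to -0.01 for Slc10a1 (0.781 to 0.999). Unadjusted p ranged from 0.014 to 0.145 for Hsd3b7 and from 0.0224 to 0.188 for Abcc2 over all alternatives. The exact permutation p of Hsd3b7, 0.0286 as reported, was 0.171 after quantile normalization and 0.143 with array medians aligned; whether the deposited arrays had already been scaled to each other is not known. The number of probes with an adjusted p under 0.05, 0 as reported, was 1 with a floor of 32 units, after quantile normalization, with array medians aligned and with array weights, and 2 after normexp with an offset of 50. It was 0 to 1 when 1 animal was left out, and no such probe belonged to the 3 genes; the cause was not tested. The 7 pathway genes included 5 or 6 with a negative log2 fold change, and their median ranged from -0.19 to -0.09. No paired analysis was run: the labels number no replicates, and although title endings recur in both groups, what they mark is not stated and 1 ending is carried by 2 transgenic animals. With 4 arrays per group, the 95% intervals of Hsd3b7, Abcc2 and Slc10a1 allow levels in transgenic livers as low as 0.743, 0.706 and 0.752 of wildtype, in that order.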
